A study of Arabidopsis thaliana with 12 samples.

Results

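The 3 genes described here encode enzymes of nucleotide and amino acid synthesis, and their transcripts were measured in Arabidopsis thaliana plants with and without mechanical wounding. They were AT2G35390, a phosphoribosyl pyrophosphate synthetase, AT1G31220, the glycinamide ribonucleotide formyltransferase of purine synthesis, and AT3G58610, ketol-acid reductoisomerase. The rule took every probe that the platform annotation assigns to 1 of these genes alone. It found 3 probes, 1 per gene, among 692 single-gene probes and 3439 probes in all. A further probe, annotated to AT1G31220 together with other genes, was not used. RefSeq lists AT2G35400 as an older name within AT2G35390.

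Both groups were wild-type Arabidopsis thaliana of the Columbia 0 ecotype, with no transgene named. The untreated group held 6 arrays and the wounded group 6 arrays, the latter from plants sampled 2 days after cuts into the leaves. The labels gave no plant age, no sampled organ and no sampling day for untreated plants, so wounding and harvest time cannot be told apart. Nothing in the labels ties an array to its own plant or extract, and the p-values therefore measure array-to-array spread that may be technical.

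Phosphoribosyl pyrophosphate is the activated sugar phosphate on which purine and pyrimidine nucleotides, histidine, tryptophan and nicotinamide cofactors are built. Purine synthesis attaches the ring atom by atom to this sugar, and the formyltransferase adds a one-carbon unit donated by a folate. Ketol-acid reductoisomerase belongs to a separate route: it is a plastid enzyme shared by the synthesis of valine, isoleucine and, through a valine precursor, leucine. Plants hold much of both routes in the chloroplast.

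The deposited intensities had a mean per array between 0.983 and 1.09, and 4.77% to 5.90% of the values of an array were listed at exactly 0. None of the 3 genes was listed at 0 on any array. Wounded replicate 4 correlated with the others at r between 0.430 and 0.500 over probes. Arrays of 5 pairs (untreated 1 and 2, 3 and 4, 5 and 6; wounded 2 and 3, 5 and 6) correlated at r between 0.953 and 0.985, and the remaining pairs at r between 0.876 and 0.946. The differences between groups are therefore given with and without wounded replicate 4, and those of the 3 genes also with these pairs treated as related. Of 22 marker genes of leaf mesophyll, root, epidermis with guard cells, and the wound and jasmonate response, 0 had a single-gene probe, so neither the tissue nor the wound response was checked on known markers.

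AT2G35390 makes phosphoribosyl pyrophosphate from ribose phosphate and ATP. Its deposited intensity in untreated plants ran from 0.214 through a median of 0.256 to 0.315. In wounded plants it ran from 0.171 through a median of 0.301 to 0.411. The wounded arrays were thus more spread than the untreated ones and lay on both sides of them, with replicates 3, 5 and 6 above and replicates 1 and 4 below all untreated arrays.

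After quantile scaling, which gives all arrays the same distribution of values, the log2 intensity of AT2G35390 was -2.13 ± 0.39 in untreated plants (SD, n = 6) and -1.70 ± 0.58 in wounded plants (SD, n = 6). The 4 wounded replicates 2, 3, 5 and 6 lay between -1.52 and -1.09, above the highest untreated array at -1.77. Wounded replicates 1 and 4 lay at -2.19 and -2.62, within the untreated range. The probe was dim: it outshone 19.9% to 35.1% of the measured probes on untreated arrays and 20.0% to 51.4% on wounded arrays.

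The log2 difference of AT2G35390, wounded minus untreated, was 0.44 ± 0.28 (SE, 95% interval from -0.17 to 1.04), a ratio of 1.35, and did not pass limma's test over all probes (adjusted p = 0.525). Without wounded replicate 4 it was 0.62 ± 0.22 (interval from 0.13 to 1.11), a ratio of 1.54, and still did not pass (adjusted p = 0.152). An exact permutation of the arrays, two-sided, gave p = 0.156 over 12 arrays and p = 0.0368 over 11. With the values as deposited the difference was 0.13, where the median of all probes was -0.32, so that relative to that median it was 0.45. The deposited values without wounded replicate 4 gave 0.27, or 0.59 relative to a median of -0.31.

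AT1G31220 catalyses the first of the folate-dependent steps of purine synthesis. Its deposited intensity was 0.450 at the lowest, 0.662 at the median and 1.12 at the highest untreated array. The wounded values were 0.312 at the lowest, 0.373 at the median and 0.452 at the highest. All wounded arrays other than replicate 4 were below every untreated array, and replicate 4, at 0.452, passed untreated replicate 6, at 0.450.

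In these deposited values the groups of AT1G31220 did not overlap once wounded replicate 4 was left out, as was the case for 7.49% of all probes tested. Over all 12 arrays they overlapped, as they did for all but 4.58% of the probes. After scaling they overlapped both with that array and without it, where 3.5% and 5.81% of the probes had separate groups. The groups of AT2G35390 and AT3G58610 overlapped in each of these 4 comparisons. The scaled log2 intensity was -0.67 ± 0.41 in untreated plants (SD, n = 6) and -1.22 ± 0.21 in wounded plants (SD, n = 6). Untreated replicates 1 to 4, from -0.18 to -0.76, lay above every wounded array. Untreated replicates 5 and 6, at -0.97 and -1.26, lay inside the wounded range, which went from -1.47 to -0.87. The untreated arrays thus differed more among themselves than the wounded ones did.

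AT1G31220 had a log2 difference of -0.54 ± 0.20 (SE, 95% interval from -0.98 to -0.10), a ratio of 0.687, with an adjusted p of 0.353 in limma. Its unadjusted p was 0.0202, at rank 183 of 3233 probes. Without wounded replicate 4 the difference was -0.61 ± 0.19 (interval from -1.02 to -0.20), a ratio of 0.655, with an adjusted p of 0.105. The exact permutation test, two-sided, gave p = 0.0216 over 12 arrays and p = 0.0173 over 11. With the values as deposited the difference was -0.89 over 12 arrays and -0.94 over 11, or -0.57 and -0.63 relative to the median of all probes.

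AT3G58610 acts after acetohydroxyacid synthase in branched-chain amino acid synthesis, where it rearranges and reduces the acetohydroxy acids. Untreated plants had deposited intensities of 1.74 at the lowest, 2.31 at the median and 2.73 at the highest array. Wounded plants had 0.329 at the lowest, 1.37 at the median and 1.96 at the highest. Wounded replicates 1 to 5 were below all untreated arrays, and replicate 6 was above untreated replicates 5 and 6.

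Wounded replicate 4 stood far below the rest of its group for AT3G58610, at 0.329 against 1.28 for the next lowest. The probe outshone 42.1% of the measured probes on that array, against 82.7% to 88.9% on the other wounded arrays and 87.5% to 92.0% on the untreated ones. The scaled log2 intensity was 1.04 ± 0.20 in untreated plants (SD, n = 6), 0.30 ± 0.88 in wounded plants (SD, n = 6) and 0.65 ± 0.18 without wounded replicate 4 (SD, n = 5). Untreated replicates 1 to 4 lay above every wounded array, as for AT1G31220, and untreated replicates 5 and 6, at 0.84 and 0.76, lay below wounded replicate 6, at 0.90.

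The log2 difference of AT3G58610 was -0.74 ± 0.35 (SE, 95% interval from -1.49 to 0.01), a ratio of 0.598, with an adjusted p of 0.433 in limma. Without wounded replicate 4 it was -0.39 ± 0.13 (interval from -0.67 to -0.11), a ratio of 0.764, and again did not pass (adjusted p = 0.131). That 1 array thus nearly doubled the size of the difference on the log2 scale. The exact permutation test, two-sided, gave p = 0.00866 over 12 arrays and p = 0.0152 over 11. With the values as deposited it was -0.92 over 12 arrays and -0.55 over 11, or -0.60 and -0.24 relative to the median of all probes. With median centring in place of quantile scaling it was -0.57 ± 0.35 over 12 arrays (adjusted p = 0.553), and without wounded replicate 4 the difference was -0.21 ± 0.13 (adjusted p = 0.372).

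The permutation p-values of the 3 genes, over 12 and over 11 arrays, are not adjusted. The genes were chosen with earlier results known, and the test counts each array as independent. The smallest p the test allows is 0.0022. In bulk RNA, fewer cells of a type and less RNA per cell cannot be told apart.

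**Figure D1:**
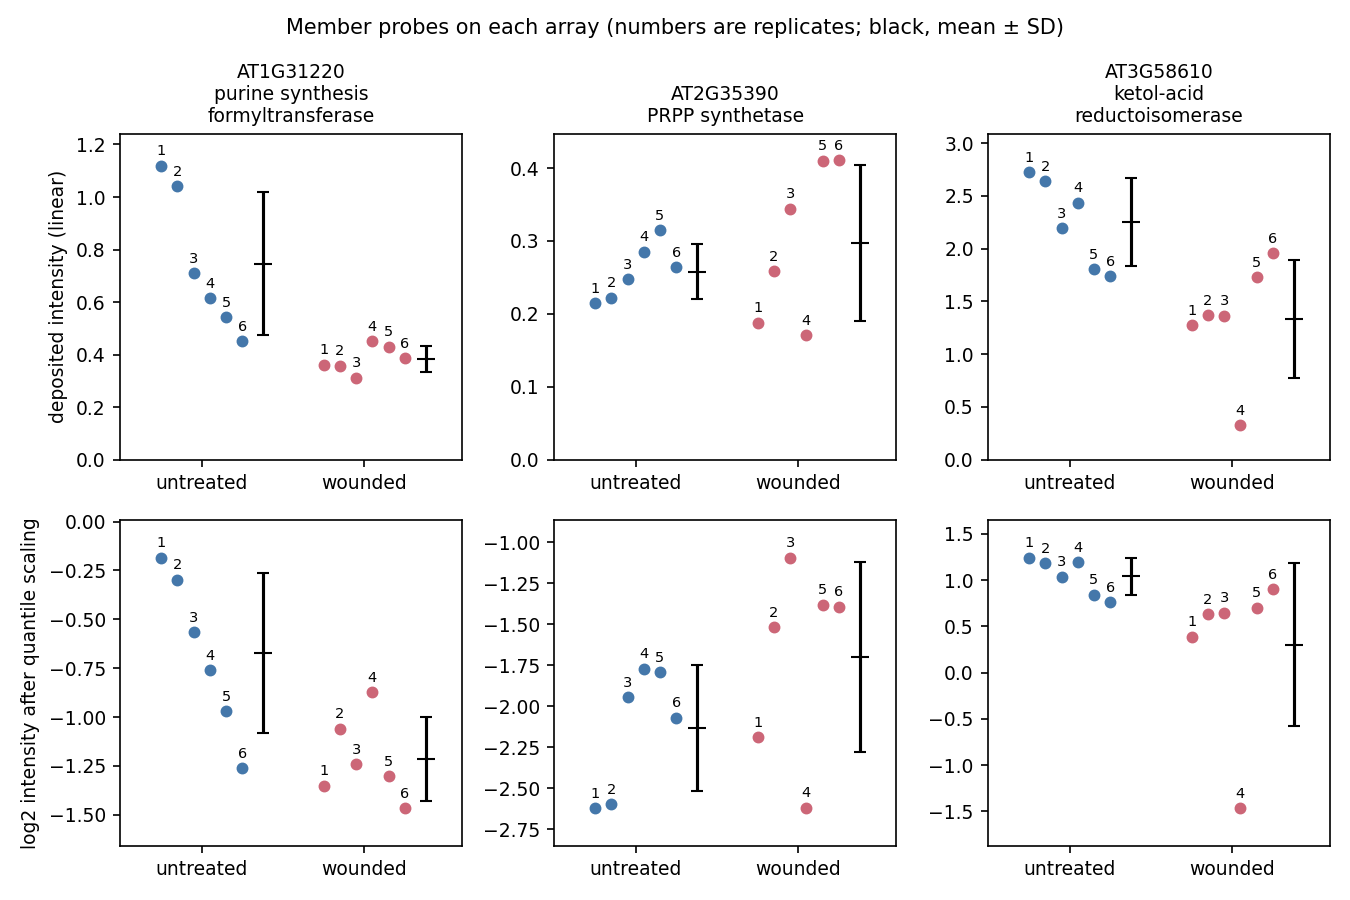
Deposited linear intensity (top) and quantile-scaled log2 intensity (bottom) of the 3 genes on each array, with replicate numbers beside the points and the mean ± SD of 6 arrays in black. Untreated replicates 1 to 4 lie above all wounded arrays for AT1G31220 and AT3G58610 on the scaled values, and wounded replicate 4 lies at the bottom of its group for AT2G35390 and AT3G58610.

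The differences were read against those of all probes. Over the 12 arrays 0 of 3233 probes (0%) passed an adjusted p of 0.05 in limma, and 11.6% had an unadjusted p under 0.05. Of the 3 genes, AT1G31220 was under that unadjusted limit. Without wounded replicate 4, 71 of 3203 probes (2.22%) passed after adjustment and 20.8% had an unadjusted p under 0.05. All 3 genes were then under the unadjusted limit, and 0 of them passed after adjustment.

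Their sizes were also not rare among the probes. Over 12 arrays 13.1% of the probes had a difference at least as negative as that of AT1G31220, 6.22% one at least as negative as that of AT3G58610, and 15.5% one at least as positive as that of AT2G35390. Without wounded replicate 4 these shares were 5.21%, 13.1% and 4.40%. The median log2 difference of all probes was -0.02 in both fits.

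**Figure D2:**
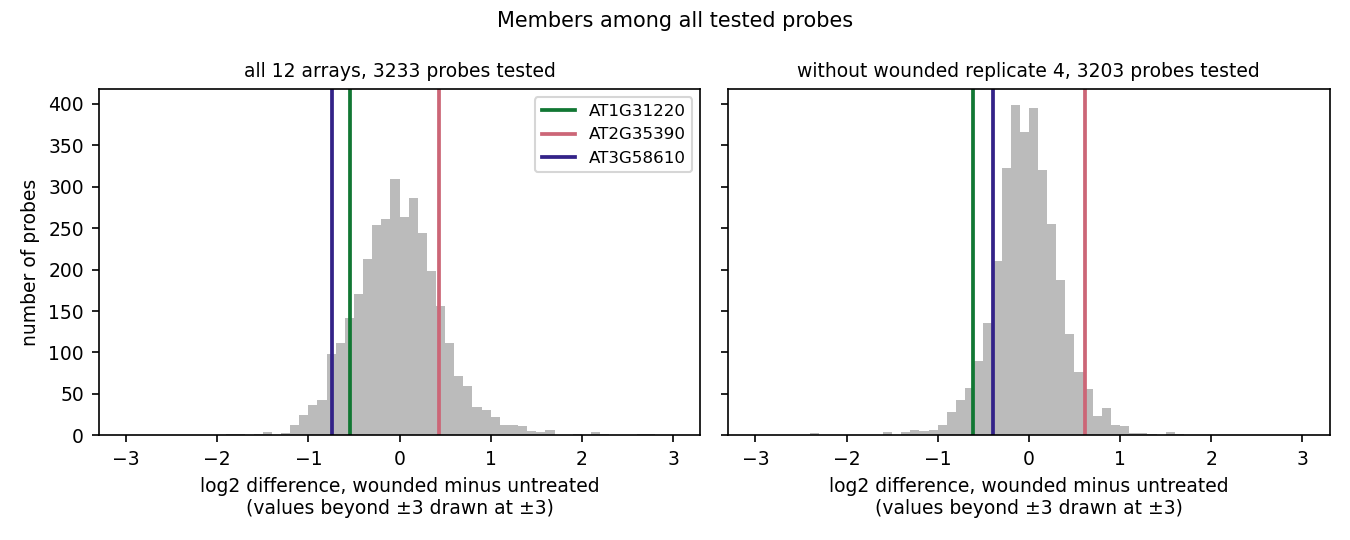
Histograms of the log2 difference (wounded minus untreated) of all probes tested, over 12 arrays on the left and without wounded replicate 4 on the right, with the 3 genes as vertical lines. AT1G31220 and AT3G58610 lie on the negative side and AT2G35390 on the positive side in both, inside the bulk or shoulders of the distribution.

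The arrays of the 5 pairs were also compared for these genes, where the partner was not always the nearest array. For AT3G58610 the paired arrays differed by 0.02 to 0.20 on the scaled log2 axis. Wounded 5, at 0.70, was nearer to wounded 3, at 0.65, than to its partner wounded 6, at 0.90. The mean of untreated 5 and 6 was 0.80 and that of wounded 5 and 6 was also 0.80, while untreated 1 and 2 had 1.21, untreated 3 and 4 had 1.11, and wounded 2 and 3 had 0.64. The lower level in wounded plants was therefore not seen between these pairs numbered 5 and 6, but replicate numbers did not pair the arrays across groups. Going by the deviations described below, untreated 1 and 2 had their closest wounded arrays in 5 and 6, with means of 1.21 and 0.80. For untreated 5 and 6 the closest were wounded 3 and 2, with means of 0.80 and 0.64. The lower level of AT3G58610 was seen in both of these comparisons. By plain correlation of the scaled values, untreated 5 and 6 were instead most like wounded 1 (r = 0.932 and 0.936), which stood at 0.39.

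For AT1G31220 the pairs of arrays had means of -0.24, -0.66 and -1.12 among untreated plants and -1.15 and -1.39 among wounded plants, with differences within pairs of 0.11 to 0.29. Matched by the deviations, untreated 1 and 2 stood at -0.24 against -1.39 for wounded 5 and 6. Untreated 5 and 6 stood at -1.12 against -1.15 for wounded 2 and 3, so the lower level of AT1G31220 was hardly seen there. For AT2G35390 untreated 1 and 2 had a mean of -2.61, well under the other untreated pairs at -1.86 and -1.93, and the wounded pairs had -1.30 and -1.39. Differences within its pairs ran from 0.01 to 0.42. Matched by the deviations, the wounded pair of AT2G35390 was higher in both comparisons, at -1.39 against -2.61 and at -1.30 against -1.93. Among the untreated pairs, untreated 1 and 2 thus had the highest mean of AT1G31220 and AT3G58610 and the lowest of AT2G35390, although untreated 4 lay just above untreated 2 for AT3G58610, at 1.19 against 1.18.

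With the paired arrays as a random block and without wounded replicate 4, limma gave log2 differences of -0.62 ± 0.25 for AT1G31220 (SE, adjusted p = 0.546), 0.53 ± 0.31 for AT2G35390 (adjusted p = 0.761) and -0.43 ± 0.18 for AT3G58610 (adjusted p = 0.592). In this fit 0 of 3203 probes (0%) passed after adjustment and 7.59% had an unadjusted p under 0.05, among them AT1G31220 and AT3G58610 (unadjusted p = 0.0299 and 0.0364). Over all 12 arrays with the same block the differences of AT1G31220, AT2G35390 and AT3G58610 were -0.52 ± 0.36, 0.27 ± 0.46 and -0.94 ± 0.47 (adjusted p = 0.931, 0.941 and 0.931 in limma). Their unadjusted p-values were 0.178, 0.572 and 0.0671, where 2.54% of the probes were under 0.05, so AT1G31220 was no longer under the unadjusted limit.

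**Figure D3:**
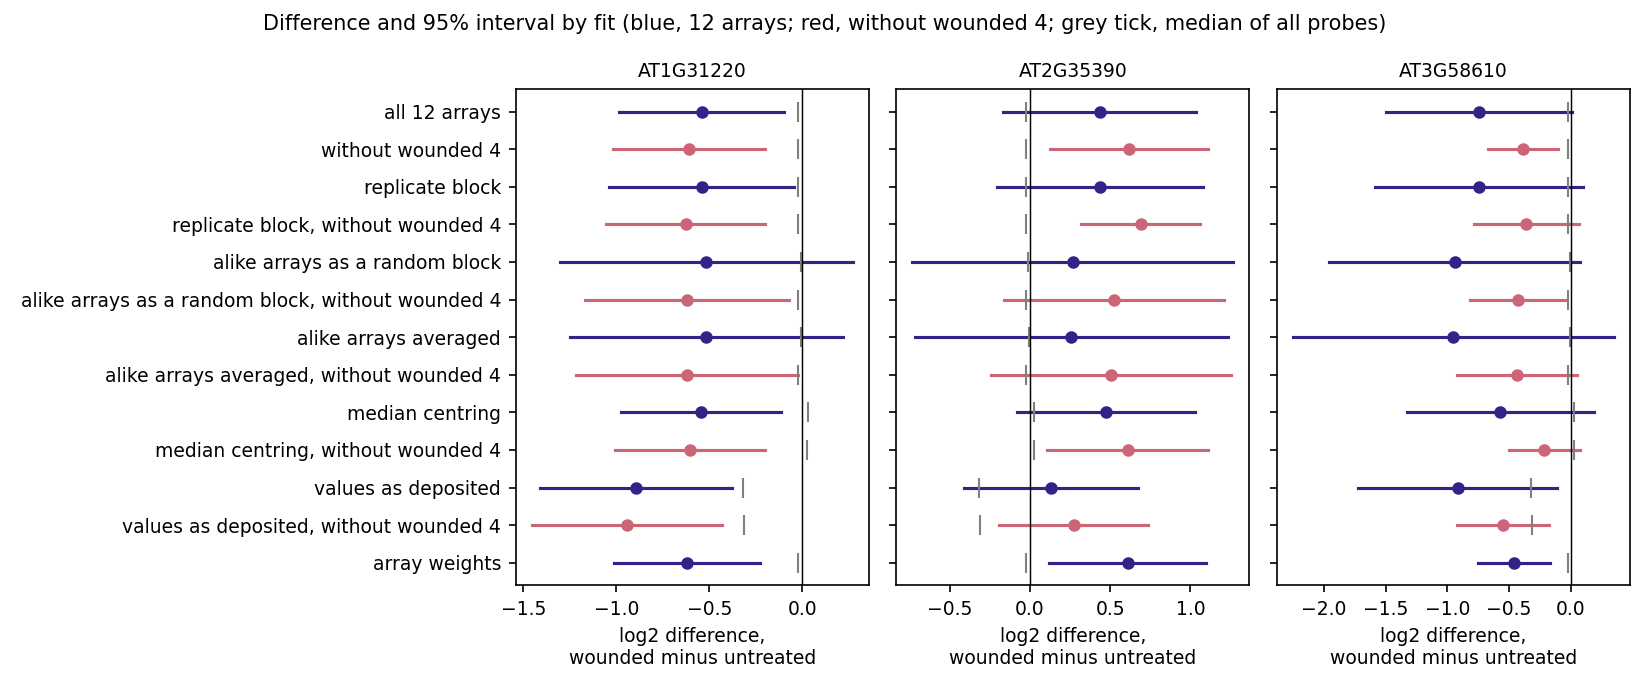
Log2 difference (wounded minus untreated) of each gene with its 95% interval under 13 fits, over 12 arrays in blue and without wounded replicate 4 in red, with the median of all probes as a grey tick. The sign of each gene is the same in all fits drawn, and the intervals are widest where the paired arrays are treated as related and wounded replicate 4 is kept.

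The 3 genes were also compared with each other across arrays, as a description. After scaling, AT1G31220 and AT3G58610 correlated at r = 0.81 (rho = 0.70) over the 11 arrays without wounded replicate 4, and at r = 0.24 (rho = 0.57) over all 12. AT1G31220 and AT2G35390 correlated at r = -0.71 (rho = -0.53) over 11 arrays and r = -0.67 (rho = -0.56) over 12. AT2G35390 and AT3G58610 correlated at r = -0.47 over 11 arrays and at r = 0.24 over 12. These points share the group difference, the scaling and the paired arrays.

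The log2 ratio of 2 probes on the same array does not depend on a uniform scaling of that array, although its absolute level has no meaning between probes. The ratio of AT2G35390 to AT1G31220 averaged -1.47 ± 0.71 in untreated plants (SD, n = 6), -0.44 ± 0.62 in wounded plants (SD, n = 6) and -0.25 ± 0.46 without wounded replicate 4 (SD, n = 5). The groups overlapped, since the highest untreated array stood at -0.77 and the lowest wounded one other than replicate 4 at -0.95. The ratio of AT3G58610 to AT2G35390 averaged 3.12 ± 0.45 in untreated plants (SD, n = 6), 2.07 ± 0.62 in wounded plants (SD, n = 6) and 2.30 ± 0.31 without wounded replicate 4 (SD, n = 5). Here too the groups overlapped, with the lowest untreated array at 2.52 and the highest wounded one at 2.77. For AT3G58610 to AT1G31220 the means were 1.65 ± 0.30 in untreated plants (SD, n = 6) and 1.63 ± 1.04 in wounded plants (SD, n = 6), which differ by less than either SD. Once wounded replicate 4, which stood at -0.46, was left out, the wounded mean was 2.05 ± 0.20 (SD, n = 5).

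Of 82 genes listed for purine, phosphoribosyl pyrophosphate, pyrimidine, histidine, branched-chain amino acid, one-carbon folate and ribose phosphate metabolism, 8 had a single-gene probe, the 3 genes above among them. The 7 that could be tested had a median log2 difference of -0.02 over 12 arrays and 0.13 over 11, against -0.02 for all probes in both. After adjustment over all probes, 0 of the 7 passed in either direction in either fit.

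UPP, a uracil phosphoribosyltransferase that uses phosphoribosyl pyrophosphate to salvage uracil, was listed at 0 on all 12 arrays and could not be tested. AT2G44530, a second phosphoribosyl pyrophosphate synthetase, had a log2 difference of 0.11 ± 0.19 (SE, adjusted p = 0.801 in limma) over 12 arrays and 0.12 ± 0.18 over 11. With the values as deposited it was -0.24 over 12 arrays and -0.29 over 11, which is 0.08 and 0.02 relative to the median of all probes. Its deposited intensities were 0.116 to 0.162 in untreated and 0.080 to 0.190 in wounded plants.

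AT3G23940, the dihydroxyacid dehydratase that takes up the product of ketol-acid reductoisomerase, had a log2 difference of -0.20 ± 0.41 over 12 arrays (SE, adjusted p = 0.834) and 0.13 ± 0.30 without wounded replicate 4. With the values as deposited it was -0.45 and -0.16, which is -0.13 and 0.16 relative to the median of all probes. Its wounded arrays were divided, with replicates 1 to 3 at scaled log2 intensities of -0.43 to 0.16, replicates 5 and 6 at -1.37 and -1.30 and replicate 4 at -2.55. Untreated arrays ran from -1.13 to -0.19. Wounded replicates 5 and 6 were thus the lowest wounded arrays for AT3G23940 after replicate 4, while they were the highest for AT3G58610. Both genes had their lowest value on wounded replicate 4, which was set apart as the lowest wounded array for 708 of 3068 probes.

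AT-HF, the imidazole glycerol phosphate synthase of histidine synthesis, whose side product enters purine synthesis, had a log2 difference of 0.73 ± 0.45 over 12 arrays (SE, adjusted p = 0.514) and 0.33 ± 0.28 over 11. With the values as deposited AT-HF had 0.34 over 12 arrays and 0.008 over 11, which is 0.66 and 0.32 relative to the median of all probes. Wounded replicate 4 was the highest array for AT-HF, at a deposited intensity of 1.44 against 0.260 to 0.453 on the untreated arrays and 0.276 to 0.434 on the other wounded ones. AT5G44520, of the ribose phosphate isomerase family, had -0.02 ± 0.18 over 12 arrays (adjusted p = 0.968) and 0.13 ± 0.09 over 11 (adjusted p = 0.441). With the values as deposited AT5G44520 had -0.32 over 12 arrays and -0.19 over 11, where the medians of all probes were -0.32 and -0.31.

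**Figure D4:**
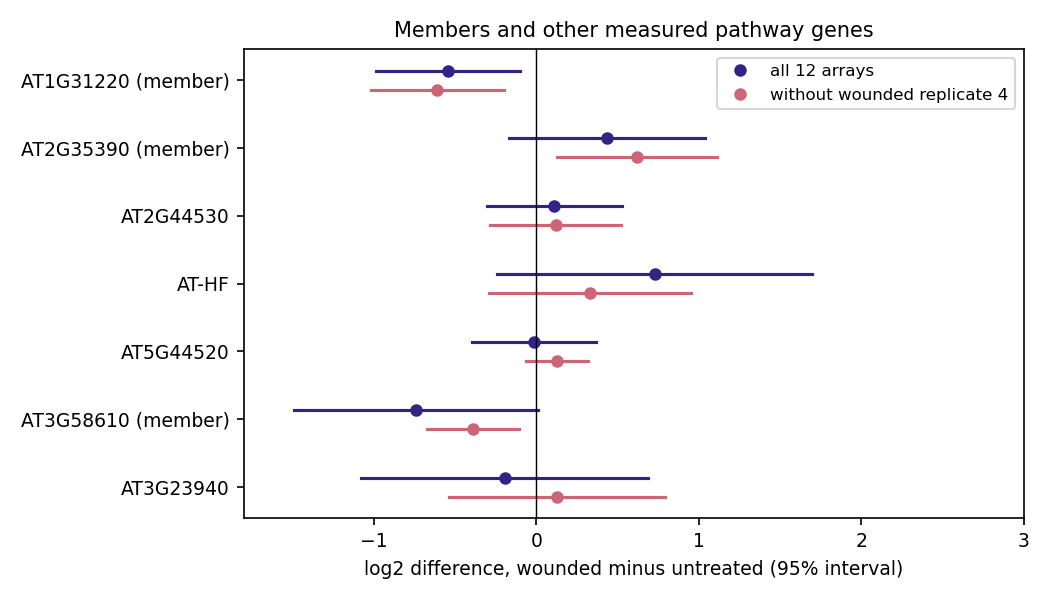
Log2 difference (wounded minus untreated) with its 95% interval for the 3 genes and the 4 other pathway genes that could be tested, over 12 arrays in blue and without wounded replicate 4 in red. The intervals of AT2G44530, AT-HF, AT5G44520 and AT3G23940 cross 0 in both fits.

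The single-gene probes whose profile was most like each gene over the 11 arrays without wounded replicate 4 were found by Pearson's r among 612 candidates with a value on every one of these arrays. For AT1G31220 they were UBA1A (r = 0.87), AT1G17744 (r = 0.87) and AT2G26680 (r = 0.86), with r = 0.87, 0.62 and 0.74 over all 12 arrays. For AT2G35390 they were AT1G01500 (r = 0.89), AT1G11800 (r = 0.87) and AT2G21530 (r = 0.85), and here the likeness was lost over 12 arrays for AT1G01500 and AT1G11800, at r = -0.21 and 0.19, while AT2G21530 had r = 0.69. For AT3G58610 they were AT2G23890 (r = 0.94), AT1G70180 (r = 0.88) and AT1G54500, a chloroplast rubredoxin (r = 0.87), with r = 0.94, 0.65 and 0.92 over 12 arrays. The median r over all candidates was 0.05, -0.06 and 0.10 in the same order of genes.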

How the data were processed

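The authors deposited 1 table of linear intensity values for 3439 probes on 12 arrays; how they were corrected and scaled, and on which array type, is not given in the sources used here. Groups and replicate numbers came from the sample titles. Of the probes, 692 named 1 gene (690 matched to RefSeq TAIR10.1 loci by gene identifier), 870 several and 1877 none; the annotation can be old, and no coordinates are given because no build is named.

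Values of exactly 0 were treated as missing. Array medians spread over 0.825 on the log2 scale, so log2 intensities were quantile-normalized. Probes with at least 4 values per group were fitted on the whole table with limma 3.58.1 (lmFit, eBayes, two-sided, group only, R 4.3.3), with Benjamini-Hochberg adjustment over all probes and a threshold of 0.05. Single genes also had an exact permutation test of the difference of mean log2 values. The deposited table gives no background value and no detection call, so signal over background could not be judged. The number of arrays limits the precision. The genes, the gene lists, the paired arrays and the removal of wounded replicate 4 were chosen with earlier results of these data known. Named are the 3 genes, all pathway genes with a single-gene probe, and the 3 single-gene probes most like each gene by Pearson's r over 11 arrays. Alternatives covered the block by replicate number, the paired arrays as a block or averaged, the scaling, an offset of 0.1, filters, an intensity trend, array weights and each array left out. Figures used matplotlib 3.10.9 in Python 3.11.15.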

Additional observations from a re-analysis of the deposited data

Results flagged for a closer look

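Among the 14 groups of arrays examined (3 genes and the 4 other pathway genes tested, in wounded and untreated plants), 2 held an array far from the others of its group, where chance gives about 1 in 20. Both concerned wounded replicate 4. For AT3G58610 it was the lowest wounded array, at a scaled log2 intensity of -1.47, and its gap to the next array was 0.782 of the range of the group. For AT5G44520 it was also the lowest, at -1.75, with a gap of 0.873 of the range. An array this far from the rest, at either end, was found for 1136 of the 3068 probes measured throughout the wounded group (37.0%). It was wounded replicate 4 in 1094 cases, as the lowest array in 708 and the highest in 386. Neither AT1G31220 nor AT2G35390 had an array so placed, although wounded replicate 4 was the highest wounded array for the former and the lowest for the latter.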

How the results depend on the processing

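None of the 3 genes passed the threshold or changed sign in any of 28 alternatives each. The log2 difference ran from -0.94 to -0.44 for AT1G31220 (lowest adjusted p = 0.0542, values as deposited without wounded replicate 4), from 0.13 to 0.69 for AT2G35390 (lowest adjusted p = 0.115, array weights) and from -0.95 to -0.21 for AT3G58610 (lowest adjusted p = 0.0662, array weights). Leaving out 1 array at a time gave -0.66 to -0.44, 0.31 to 0.62 and -0.86 to -0.39. The count of all probes past the threshold in limma, 0 with all arrays, ran from 0 to 71 with 1 array left out, the latter without wounded replicate 4 (31 higher and 40 lower), and stayed at 0 without any other array. It was 73 with the quantile scaling computed over those 11 arrays, 72 with median centring over them (48 higher and 24 lower), 87 with unscaled deposited values over them (6 higher and 81 lower), 7 with unscaled values over 12 arrays (0 higher and 7 lower), 1 with an offset of 0.1 and 179 with array weights. The deposited values and median centring over 11 arrays were added after seeing the data. The cause of these changes was not tested. The permutation p of AT2G35390 was 0.156 over 12 arrays and 0.0368 without wounded replicate 4. Replicate numbers did not pair the arrays: deviations of same-numbered arrays correlated at r between -0.34 and 0.09. Without wounded replicate 4, the deviations of untreated 1, 2, 3, 5 and 6 were most like those of wounded 5, 6, 1, 3 and 2, in that order. No fit treated arrays of both groups as related by this likeness, so the p-values and intervals do not account for it. Its cause was not tested. With the replicate number as a block the differences were -0.54, 0.44 and -0.74 for AT1G31220, AT2G35390 and AT3G58610 (adjusted p = 0.583, 0.628 and 0.619), with 0 probes called and 256 at an unadjusted p under 0.05. Without wounded replicate 4 it was 0 and 446, where AT2G35390 had 0.69 ± 0.15 (adjusted p = 0.240).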
